A study of Gallus gallus with 6 samples.

Results

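Ion channels let ions flow down their gradients across cell membranes, and ion pumps spend ATP to build those gradients. Of the 9107 gene rows in a table of messenger RNA levels from chick lens fiber cells, 67 carried the symbol of such a gene. They were chosen by the start of the gene symbol: KCN, CACN, SCN, CLCN, CLIC, TRPC, TRPM, TRPV, ANO, LRRC8, PIEZO, ATP1A, ATP1B, ATP2A, ATP2B, AQP, ITPR and ORAI. A digit had to follow SCN, TRPC, TRPM, TRPV, ANO and ITPR, so SCNN1B and SCNN1G were not members. The set holds 20 potassium channel genes and their partners, 6 calcium channel subunits, 3 sodium channel subunits, 15 chloride and volume-regulated channel genes and 11 TRP and PIEZO genes. It also holds 3 Na,K-ATPase subunits, 4 calcium pumps, 4 genes of inositol trisphosphate (IP3) receptors and ORAI channels, and 1 aquaporin. The symbols alone chose the members, but the set of prefixes was drawn up with earlier results of these data known.

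The lens has no blood vessels and keeps its water, sodium and calcium low with pumps and channels. In the textbook view, Na,K-ATPase works mainly in the epithelium and outer fibers, currents of sodium, potassium and water circulate through the tissue, and deeper fibers depend on gap junctions. Calcium is stored in the endoplasmic reticulum, leaves it through IP3 receptors, is refilled through STIM sensors and ORAI pores, and is removed from the cell by plasma membrane pumps.

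Libraries came from fiber cells microdissected out of lenses of White Leghorn chick embryos at embryonic day 13. The untreated group was taken at 0 h (n = 3 pools), and the hypoxia group after 8 h of whole-lens organ culture in 1% O2 (n = 3 pools), with 10 to 15 lenses in each pool and no genetic change in either group. Per the labels, each group is a biological triplicate, and damaged or opaque lenses were removed. Libraries were made with a stranded poly(A) RNA kit. As no normoxic 8 h culture was analysed here, low oxygen and time in culture cannot be told apart. In such bulk samples, fewer cells of a type and less RNA per cell cannot be told apart either.

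Read totals over the genes ran from 23.5 M to 32.6 M a library, and the delta-crystallin gene ASL1 took 48.2% to 53.1% of each. Of 17 lens fiber markers, 16 were measured, with BFSP1 and MIP among them in high amounts. After 8 h, 11 of the 16 were lower (68.8%, beside 25.7% of all genes) and 3 higher (18.8%, beside 29.4%). Under scaling by library totals, 6 were lower and 3 higher. Lower calls of all genes fell under that scaling as well, and higher ones rose, as given at the end. The 10 measured of 11 lens epithelium markers summed to between 42901 and 44255 normalized counts in untreated pools and between 36540 and 42890 in hypoxia pools. More than any other, TDRD7 filled this sum, with 25086, 29230 and 28474 and then 25924, 21610 and 22710. Whether TDRD7 marks epithelium rather than fibers here was not tested, so the sum is not read as a measure of epithelial cells. The mean log2(value + 1) over the 10 genes was 10.24, 9.95 and 9.91 in untreated pools and 10.16, 10.02 and 9.91 in hypoxia pools. Untreated pool 1 was the highest of its group for all of them but TDRD7 and WNT7A. COL4A1, for example, stood at 561, 406 and 298 in untreated pools, and NOTCH2 at 448, 301 and 281. Of these 10 genes, 3 were higher (PAX6, TFAP2A and NOTCH2) and 2 lower (PDGFRA and WNT7A). PAX6 went from 2838, 2517 and 2524 to 4734, 4038 and 4035, and PDGFRA from 887, 622 and 677 to 254, 268 and 210. The epithelial cadherin gene CDH1 stood at 29 to 53 in all pools. Summed markers of blood cells (2 of 16 measured), of vessels and mesenchyme (3 of 15) and of leukocytes (2 of 9) were between 159 and 474 in every pool. Within the vessel and mesenchyme markers, PECAM1 fell from 172, 156 and 179 to 22, 65 and 40 (adjusted p = 0.000544) and COL3A1 rose from 72, 67 and 55 to 165, 118 and 148 (adjusted p = 0.000544). Markers of retina and pigment cells (3 of 15) summed to between 482 and 549 in untreated pools and between 690 and 959 in hypoxia pools, as MITF, a regulator of pigment cells, rose from 136, 106 and 134 to 257, 288 and 356 (adjusted p = 6.76e-05). The pigment gene PMEL overlapped between groups, at 45, 18 and 11 and then 179, 39 and 229 (adjusted p = 0.0379), and the neuronal marker ELAVL4 did not pass, at 345, 358 and 404 and then 297, 363 and 374. The part of these cells in the results was not tested.

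Values below are normalized counts, which are read counts divided by a size factor for each library. They are not divided by gene length, so they are compared between groups and not between genes. Fold changes are hypoxia over untreated on the log2(value + 1) scale, ± SE, and a gene was called higher or lower at an adjusted p under 0.05 (limma, Benjamini-Hochberg over all genes tested). Of the 67 genes, 66 had a mean of at least 1 and were tested.

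After 8 h in 1% O2, 17 of the 66 genes were higher, 16 were lower and 33 did not pass. That is 50.0% called, beside 55.1% of all 9105 genes tested, 25.8% higher beside 29.4%, and 24.2% lower beside 25.7%. The median log2 fold change was -0.004, beside -0.011 for all genes. At least 2-fold changes were called for 9 higher genes (13.6%, beside 10.2% of all genes) and 5 lower genes (7.58%, beside 3.96%). In 35 of the 66 (53.0%, beside 62.7% of all genes) the pools of one group all lay above those of the other. These were 16 with the hypoxia pools on top (32.6% of all genes were so) and 19 with them below (30.1% of all genes). The shares called in either direction, higher and lower were thus below those of all genes, while the shares of changes of at least 2-fold were above them, on 14 genes. Fewer of the lower calls than of the higher ones held across the scalings and with single pools left out. The scalings by library totals raise the fold changes of all genes, so they act against lower calls and for higher ones. This part of the contrast is set by the settings run. CACNA2D1, KCNIP2 and PIEZO2 lost their calls under library totals only. The lower calls of all genes fell there too, as given at the end. With library totals as the scaling, 20 were higher and 5 lower, and the lower calls were 10 without untreated pool 2 and 10 without untreated pool 3. Up to 16 alternative settings were run (filters, scalings, weights, the replicate block and each pool left out), and KCNMA1 and other genes with a mean under 50 were not tested under the filter at that mean. A call held in every setting run for 13 of the 17 higher genes and 4 of the 16 lower ones.

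**Figure D1:**
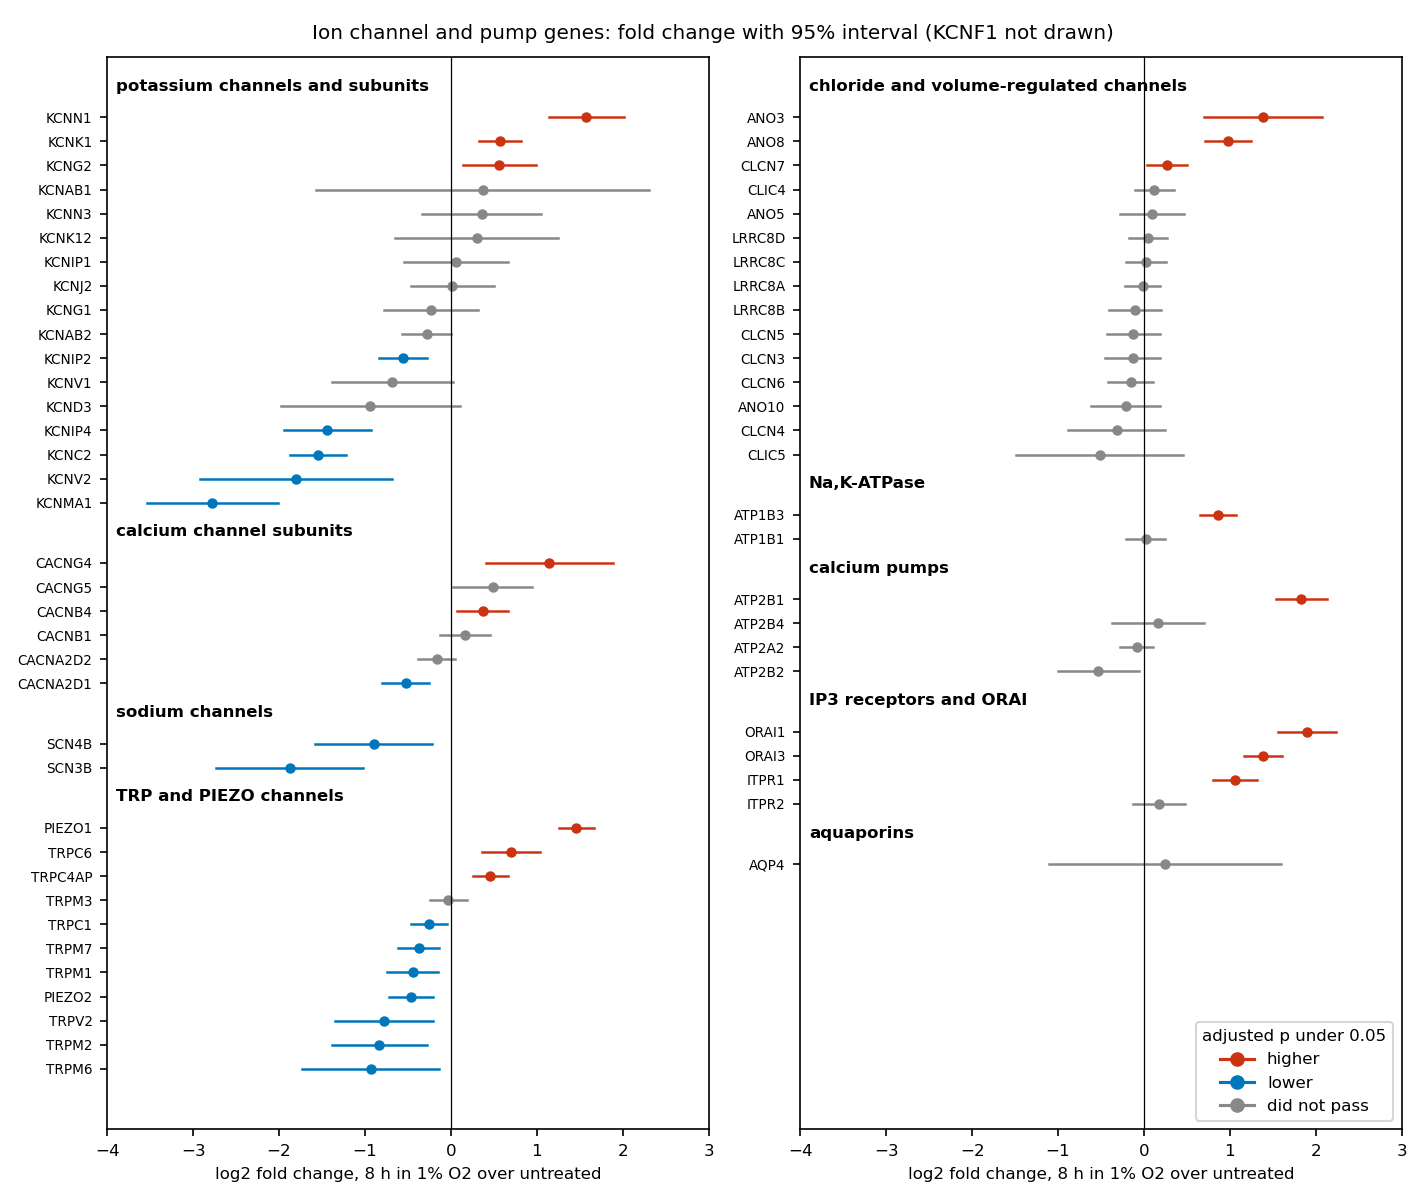
Log2 fold change (x axis) of 62 of the tested genes, 8 h in 1% O2 (n = 3 pools) over untreated (n = 3 pools), by role; points are limma estimates, bars their 95% intervals, and colours the call at adjusted p under 0.05. The genes of IP3 receptors and ORAI lie at or right of 0, SCN3B and SCN4B left of it, and KCNMA1 is the lowest; KCNF1 is not drawn because its untreated values are all 0.

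Of the 4 IP3 receptor and ORAI genes, 3 were higher (75.0%, beside 29.4% of all genes). ORAI1, the pore of store-operated calcium entry, stood at 79, 90 and 112 in untreated pools and at 375, 321 and 350 in hypoxia pools. Each hypoxia pool lay above every untreated pool, and the log2 fold change was 1.90 ± 0.16 (adjusted p = 2.03e-06). The related pore gene ORAI3, whose row also carries the symbol ORAI2, stood at 389, 376 and 408 and then at 1142, 960 and 972. Which of these paralogues the row holds was not settled. Its groups were likewise apart, with a log2 fold change of 1.38 ± 0.10 (adjusted p = 8.57e-07). ITPR1, an IP3-gated calcium release channel of the endoplasmic reticulum, went from 238, 283 and 235 to 487, 536 and 552, a log2 fold change of 1.06 ± 0.12 (adjusted p = 1.95e-05). Its relative ITPR2 did not pass, at 257, 258 and 208 and then 261, 312 and 245. The interval of the ITPR2 log2 fold change ran from -0.13 to 0.48.

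STIM1 and STIM2, the calcium sensors of the endoplasmic reticulum that open ORAI pores, were both higher, although their symbols lie outside the chosen prefixes. STIM1 stood at 263, 252 and 212 in untreated pools and at 549, 503 and 489 in hypoxia pools, a log2 fold change of 1.08 ± 0.12 (adjusted p = 1.88e-05). STIM2 stood at 144, 138 and 140 and then at 187, 213 and 215, a log2 fold change of 0.54 ± 0.13 (adjusted p = 0.0051). For both genes the groups did not overlap. SARAF, which dampens store-operated entry, was also higher, with a log2 fold change of 0.63 ± 0.11 (adjusted p = 0.000537).

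Among calcium pumps, 1 of 4 rose (25.0%, beside 29.4% of all genes). ATP2B1, the widespread plasma membrane calcium pump that expels calcium from the cell, stood at 937, 671 and 678 in untreated pools and at 2727, 2913 and 2435 in hypoxia pools. The lowest hypoxia pool was far above the highest untreated one, and the log2 fold change was 1.83 ± 0.13 (adjusted p = 1.53e-06). ATP2A2, the pump that refills the endoplasmic reticulum, did not pass, at 716, 671 and 664 and then 658, 651 and 623. Its interval, from -0.28 to 0.11 on the log2 scale, leaves out changes as large as that of ATP2B1 at the deposited scaling. The plasma membrane pumps ATP2B2 (log2 fold change -0.53 ± 0.21, adjusted p = 0.053) and ATP2B4 (0.16 ± 0.24, adjusted p = 0.583) did not pass either. ATP2B2 was called lower when untreated pool 1 (-0.70) or hypoxia pool 3 (-0.73) was left out.

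**Figure D2:**
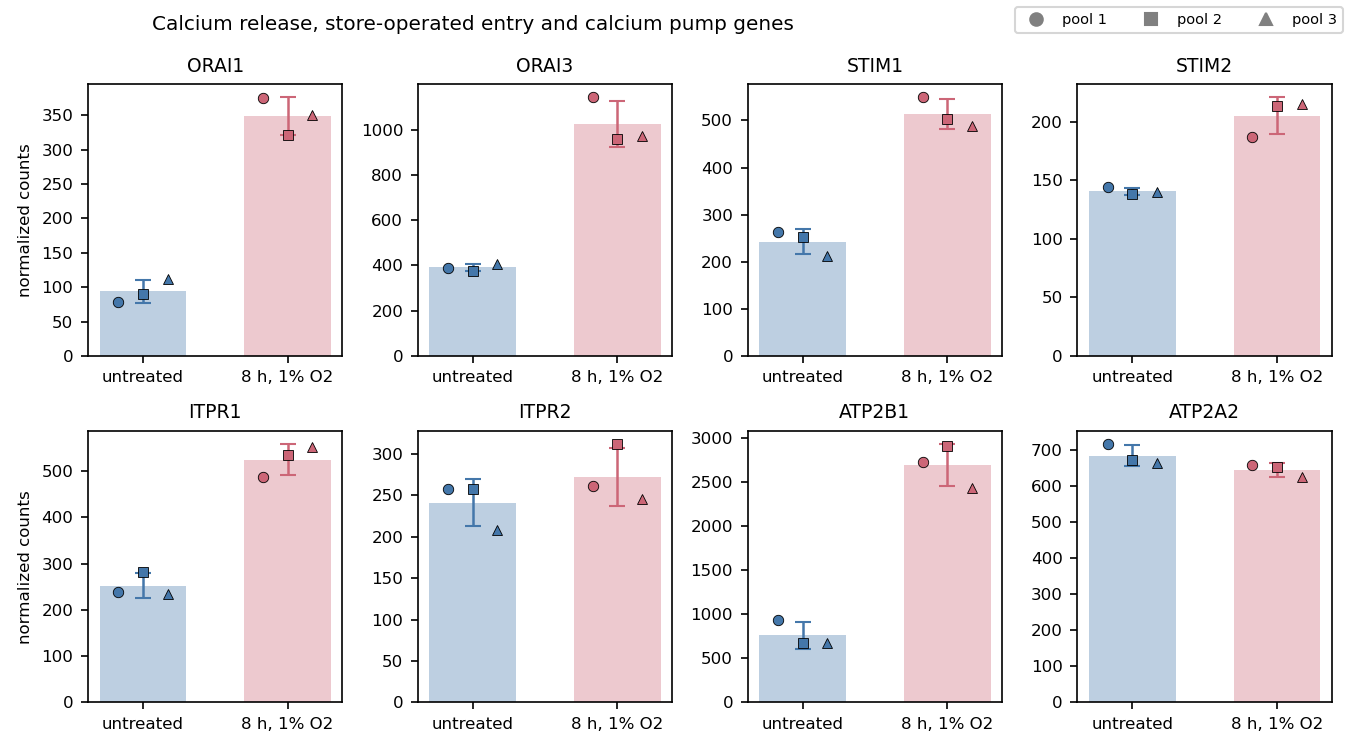
Normalized counts (y axes, from 0) of ORAI1, ORAI3, ITPR1, ITPR2, ATP2B1 and ATP2A2, and of the sensors STIM1 and STIM2, in untreated pools and after 8 h in 1% O2; bars are means of 3 pools, error bars SD, and symbols the pools. Groups are apart for ORAI1, ORAI3, STIM1, STIM2, ITPR1 and ATP2B1, and overlap for ITPR2. For ATP2A2 all pools lie within 623 to 716, with every hypoxia pool below every untreated pool.

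Calcium handling genes outside the prefixes moved both ways. Of 33 listed, 21 were measured. The calls were 5 higher (23.8%, beside 29.4% of all genes) and 9 lower (42.9%, beside 25.7%), and 7 did not pass. The higher ones include STIM1, STIM2 and SARAF, given above. The median log2 fold change was -0.27, beside -0.011 for all genes. SLC24A4, a sodium, calcium and potassium exchanger, stood at 9, 14 and 9 and then at 153, 245 and 147 (3.96 ± 0.30, adjusted p = 1.11e-06). Its paralogue SLC24A3 went the other way, from 846, 1031 and 884 to 316, 480 and 387 (-1.24 ± 0.15, adjusted p = 5.96e-05). RYR2, a ryanodine-gated calcium release channel, stood at 204, 319 and 257 and then at 70, 139 and 176 (-1.09 ± 0.34, adjusted p = 0.0267). The RYR2 call ended without untreated pool 2, untreated pool 3 or hypoxia pool 2, at log2 fold changes of -1.20 to -0.93. MCUB, an inhibitory relative of the mitochondrial calcium uniporter, had overlapping groups (176, 49 and 164, then 39, 61 and 27), and its call (-1.47 ± 0.52) ended without any 1 of 5 pools, all but untreated pool 2, at -1.76 to -1.14. With library totals the list had 6 higher and 2 lower, a scaling under which all genes also had more higher and fewer lower calls.

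Of the 19 potassium channel genes tested, 4 were higher (21.1%, beside 29.4% of all genes), 5 lower (26.3%, beside 25.7%) and 10 did not pass. KCNF1, a modulatory subunit that forms no channel alone but alters the channels it joins, was listed at 0 in all untreated pools. After 8 h it stood at 187, 166 and 144 (166 ± 22, SD), and it was called higher (adjusted p = 2.53e-07). No fold is given against a group at 0. KCNN1, a small-conductance potassium channel opened by calcium through calmodulin, rose from 229, 162 and 246 to 689, 484 and 732, a log2 fold change of 1.58 ± 0.19 (adjusted p = 0.000133). KCNK1, a background potassium channel that helps set the resting potential, rose from 2018, 2431 and 2136 to 3208, 3718 and 2880 (0.57 ± 0.11, adjusted p = 0.00135). Every hypoxia pool was above every untreated pool for these 3 genes. For KCNG2, another modulatory subunit, the groups overlapped (179, 224 and 224, then 361, 223 and 363). Its call (0.57 ± 0.19, adjusted p = 0.0284) ended when any 1 of 5 pools, all but hypoxia pool 2, was left out, at log2 fold changes of 0.45 to 0.62.

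KCNMA1, the pore of the large-conductance channel opened by calcium and voltage, fell most of all tested channel and pump genes. It stood at 81, 92 and 60 in untreated pools and at 9, 8 and 15 in hypoxia pools, a log2 fold change of -2.78 ± 0.35 (adjusted p = 5.94e-05). KCNC2, a fast voltage-gated channel best known from rapidly firing neurons, fell from 236, 231 and 250 to 72, 83 and 90 (-1.54 ± 0.15, adjusted p = 7.76e-06). KCNIP4, a calcium-binding partner of A-type potassium channels, fell from 257, 157 and 134 to 60, 66 and 67 (-1.44 ± 0.23, adjusted p = 0.00034). Untreated pool 1 was the highest for KCNIP4, and the groups stayed apart without it. In that pool the epithelial gap junction gene GJA1 was also high, at 8583 beside 5463 and 5218, and the part of epithelial cells was not tested. KCNIP2, of the same family, fell from 470, 572 and 433 to 296, 358 and 341 (-0.56 ± 0.13, adjusted p = 0.00341). Scaled by library totals, KCNIP2 did not pass (-0.34, adjusted p = 0.054). KCNV2, a modulatory subunit known from photoreceptors, stood at 22, 23 and 42 and then at 4, 13 and 7 (-1.80 ± 0.51, adjusted p = 0.0113). Without untreated pool 3 its log2 fold change was -1.51 and the call ended (adjusted p = 0.0643).

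The potassium channel genes that did not pass included KCNAB1, KCNAB2, KCND3, KCNG1, KCNIP1, KCNJ2, KCNK12, KCNN3 and KCNV1, with log2 fold changes from -0.94 in KCND3 to 0.37 in KCNAB1. KCND3, the A-type pore gene that KCNIP proteins bind, had 20, 16 and 40 and then 18, 9 and 10. KCNAB1, an accessory beta subunit, stood at 38, 20 and 16 and then at 22, 10 and 118, so hypoxia pool 3 alone was high. Without that pool its log2 fold change was -0.60 (adjusted p = 0.369). In hypoxia pool 3 the listed channel gene HCN3 was high as well, at 278 beside 43 and 85 in hypoxia pools 1 and 2. Leaving out 1 pool brought a call for KCNAB2 (-0.36 without hypoxia pool 1), KCNK12 (0.82 without hypoxia pool 3) and KCNV1 (-0.98 without untreated pool 2).

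**Figure D3:**
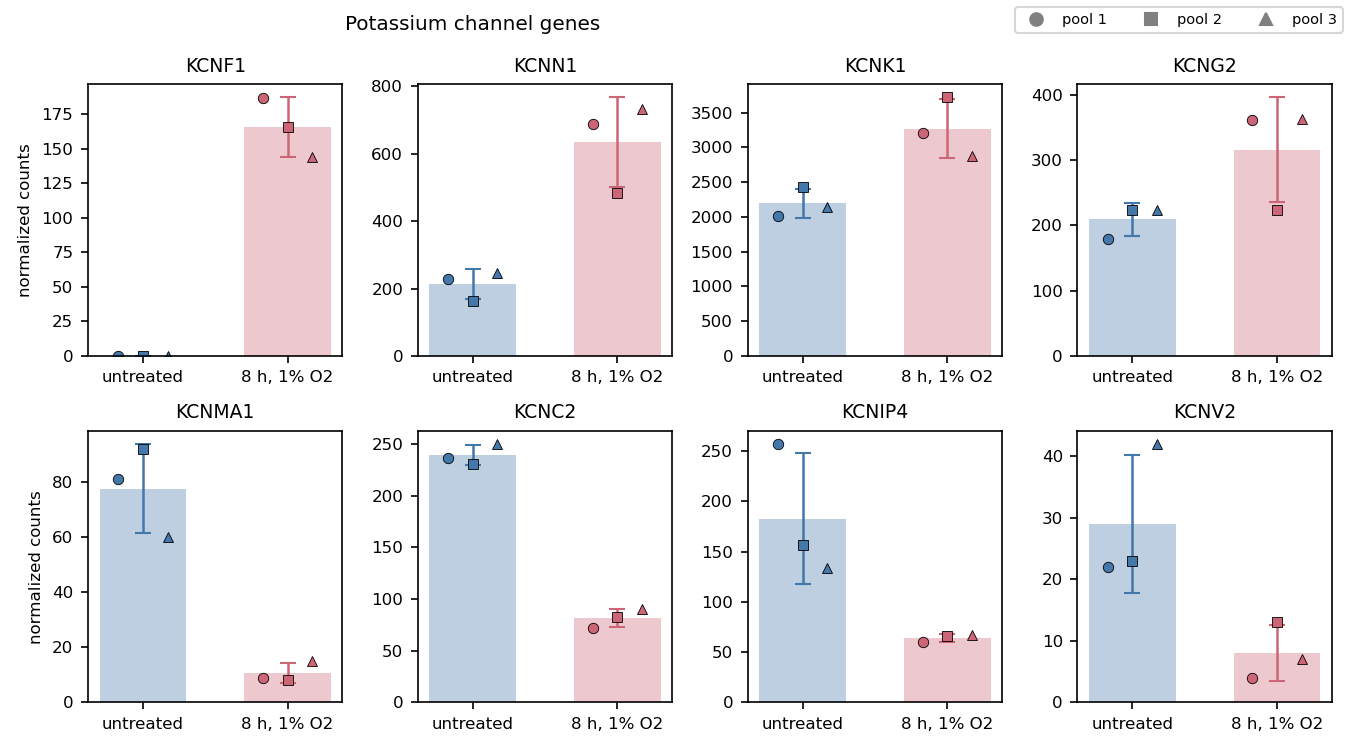
Normalized counts (y axes, from 0) of 8 potassium channel genes in untreated pools and after 8 h in 1% O2; bars are means of 3 pools, error bars SD, and symbols the pools. KCNF1 is at 0 in untreated pools, KCNN1 and KCNK1 are higher in every hypoxia pool, KCNG2 overlaps at hypoxia pool 2, and the lower row (KCNMA1, KCNC2, KCNIP4 and KCNV2) is lower in every hypoxia pool.

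The sodium channel beta subunit genes SCN3B and SCN4B were called lower. SCN3B, an accessory beta subunit, stood at 516, 714 and 516 in untreated pools and at 94, 157 and 256 in hypoxia pools, a log2 fold change of -1.88 ± 0.36 (adjusted p = 0.00466). The hypoxia pools were uneven but all below the untreated pools, and SCN3B stayed called without any single pool, at -2.23 to -1.52. SCN4B, a second beta subunit, stood at 41, 35 and 38 and then at 20, 23 and 17 (-0.90 ± 0.31, adjusted p = 0.0288). Its call ended without any 1 of 5 pools, all but hypoxia pool 2, at -0.96 to -0.79. With library totals SCN3B was lower and SCN4B was not called.

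The 6 calcium channel genes measured encode accessory and related subunits, not pores. Of these, 2 were higher (33.3%, beside 29.4% of all genes) and 1 lower (16.7%, beside 25.7%). CACNA2D1, which brings voltage-gated calcium channels to the membrane, stood at 457, 511 and 480 and then at 280, 360 and 372 (-0.52 ± 0.13, adjusted p = 0.00439). All hypoxia pools were below the untreated ones, but library totals ended the call (-0.31, adjusted p = 0.0648). CACNG4, known in mammals as a glutamate receptor partner, rose from 21, 53 and 36 to 98, 78 and 60 (1.15 ± 0.34, adjusted p = 0.0138), a call that ended without hypoxia pool 1 (0.98, adjusted p = 0.0543). CACNB4, a cytoplasmic beta subunit, was higher by a small step (0.37 ± 0.14, adjusted p = 0.0388). That call ended without untreated pool 2, untreated pool 3, hypoxia pool 1 or hypoxia pool 2, at 0.27 to 0.40. CACNA2D2, CACNB1 and CACNG5 did not pass, at log2 fold changes of -0.17, 0.17 and 0.49. CACNG5 was called higher without hypoxia pool 2 (0.70, adjusted p = 0.00633). With library totals 4 of the 6 were higher and 0 lower, with CACNB1 (0.38) and CACNG5 (0.70) added to the higher ones. That scaling raised the fold changes of all genes, with more of them higher and fewer lower, as given at the end.

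The mechanically gated channels of the PIEZO family were called in opposite directions at the deposited scaling. PIEZO1, the more widely expressed of the pair in mammals, stood at 375, 378 and 376 in untreated pools and at 1089, 1071 and 961 in hypoxia pools. The untreated pools were nearly equal, and the log2 fold change was 1.46 ± 0.09 (adjusted p = 3.33e-07). PIEZO2, known for touch sensing in mammals, stood at 425, 479 and 482 and then at 299, 326 and 383 (-0.46 ± 0.12, adjusted p = 0.00677). Library totals ended the PIEZO2 call (-0.25, adjusted p = 0.0952). The ratio of PIEZO1 to PIEZO2 within a library, which no scaling can alter, was 0.882, 0.789 and 0.78 in untreated pools and 3.64, 3.29 and 2.51 in hypoxia pools. This pair was chosen after its values were seen. A rise of PIEZO1 alone would also raise the ratio, so it cannot show whether PIEZO2 fell.

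The 9 TRP genes gave 2 higher and 6 lower calls, where 29.4% of all genes were higher and 25.7% lower. TRPC6, a cation channel opened by diacylglycerol, rose from 230, 249 and 203 to 433, 396 and 291 (0.70 ± 0.16, adjusted p = 0.00284). TRPC4AP rose from 1532, 1789 and 1823 to 2332, 2334 and 2385 (0.46 ± 0.09, adjusted p = 0.00161), but it encodes a binding partner of TRPC channels, not a pore. TRPM3, a steroid-sensitive and heat-sensitive cation channel, did not pass, at 5397, 5771 and 5080 and then 5306, 5761 and 4861. Its interval ran from -0.24 to 0.18 on the log2 scale. TRPM1, the channel of retinal ON bipolar cells and pigment cells, was lower (3664, 2847 and 2794, then 2310, 2577 and 1936), with a log2 fold change of -0.45 ± 0.13. Untreated pool 1 was its highest pool, and without it the call ended (-0.32, adjusted p = 0.0603). Most lens epithelium markers were also highest of their group in that pool, and the part of epithelial cells was not tested. The retina and pigment marker sum given above rests on 3 of 15 genes, of which MITF and PMEL were higher and ELAVL4 did not pass. The part of such cells in the TRPM1 values was not tested.

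The other lower TRP genes were TRPM7, a magnesium-permeable channel fused to a kinase (-0.37 ± 0.11), TRPC1 (-0.26 ± 0.09), TRPM2, opened by ADP-ribose (-0.83 ± 0.25), TRPV2 (-0.78 ± 0.26) and TRPM6, a relative of TRPM7 (-0.93 ± 0.36). In each, every hypoxia pool lay below every untreated pool, as for TRPM7 at 660, 680 and 614 and then 440, 519 and 554. These calls were not firm. Those of TRPM7 and TRPM2 ended without untreated pool 2 (-0.34 and -0.63). TRPC1 (-0.26 to -0.20) and TRPV2 (-0.78 to -0.65) lost theirs when untreated pool 2, untreated pool 3, hypoxia pool 1 or hypoxia pool 3 was left out. TRPM6 (-1.06 to -0.65) lost its call without untreated pool 2, untreated pool 3, hypoxia pool 1 or hypoxia pool 2. With library totals 0 of the 11 TRP and PIEZO genes were lower and 3 were higher, where the median of all genes was 0.205.

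**Figure D4:**
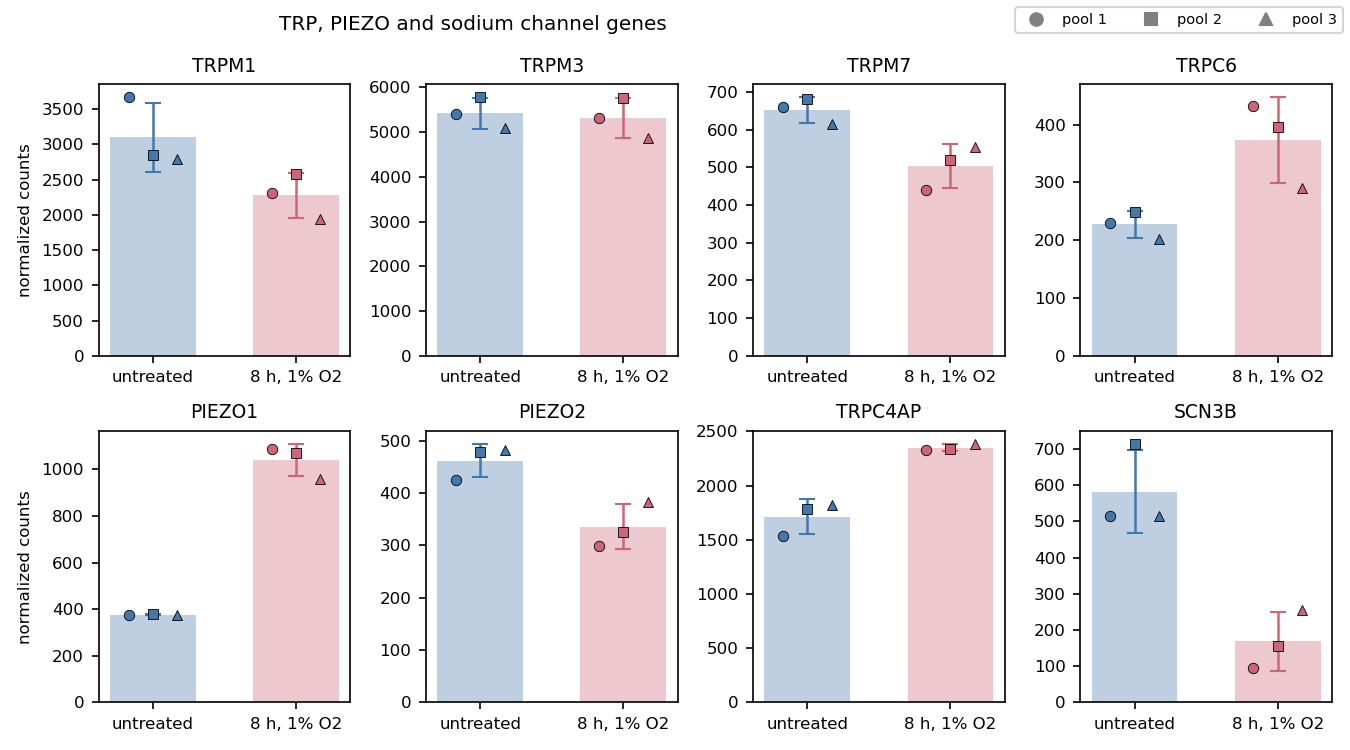
Normalized counts (y axes, from 0) of TRPM1, TRPM3, TRPM7, TRPC6, PIEZO1, PIEZO2, TRPC4AP and SCN3B in untreated pools and after 8 h in 1% O2; bars are means of 3 pools, error bars SD, and symbols the pools. PIEZO1, TRPC6 and TRPC4AP are higher and PIEZO2, TRPM1, TRPM7 and SCN3B lower in every hypoxia pool, while TRPM3 overlaps.

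The Na,K-ATPase, which exports sodium in exchange for potassium, is built from a catalytic alpha and a beta subunit. The beta subunit gene ATP1B3 was higher. It stood at 1816, 1640 and 1525 in untreated pools and at 3173, 2812 and 3047 in hypoxia pools, with the groups far apart (0.86 ± 0.10, adjusted p = 2.33e-05). The other beta subunit gene, ATP1B1, was at 1024, 1137 and 1209 and then 1281, 1091 and 1051 (0.02 ± 0.10, 95% interval -0.21 to 0.25). Within libraries, the ratio of ATP1B3 to ATP1B1 was 1.77, 1.44 and 1.26 in untreated pools and 2.48, 2.58 and 2.9 in hypoxia pools.

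**Figure D5:**
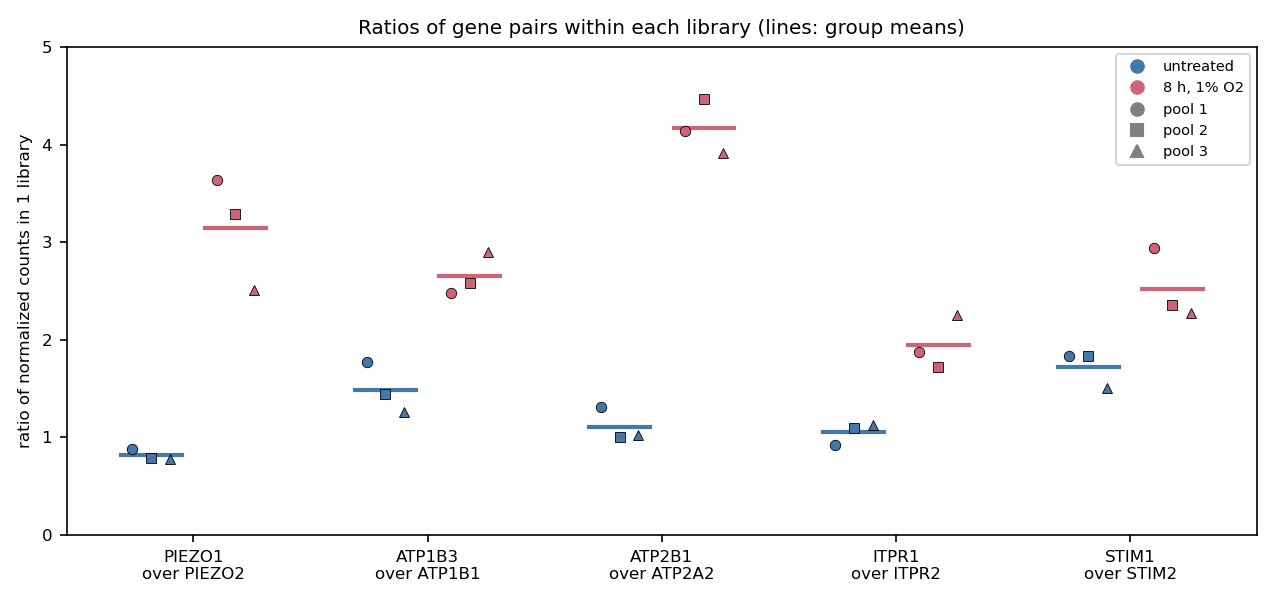
Ratio of the normalized counts of 2 genes within each library (y axis, from 0) for PIEZO1 over PIEZO2, ATP1B3 over ATP1B1, ATP2B1 over ATP2A2, ITPR1 over ITPR2 and STIM1 over STIM2, untreated and after 8 h in 1% O2; symbols are pools and lines group means. For each pair the 3 hypoxia ratios lie above the 3 untreated ones; pairs were chosen after their values were seen, and gene length is not taken into account.

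Such ratios were taken for further pairs, all chosen after their values were seen. ATP2B1 over ATP2A2 went from 1.31, 1.0 and 1.02 to 4.14, 4.47 and 3.91, and ITPR1 over ITPR2 from 0.926, 1.1 and 1.13 to 1.87, 1.72 and 2.25. The ratio of KCNN1 to KCNMA1, both genes of calcium-activated potassium channels, went from 2.83, 1.76 and 4.1 to 76.6, 60.5 and 48.8. No untreated ratio reached a hypoxia ratio in any of these pairs. Each pair sets a gene called higher over a gene that did not pass or was lower, so this follows largely from the choice.

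Chloride and volume-regulated channel genes mostly did not pass. By limma these 15 genes gave 3 higher and 0 lower calls, where 29.4% of all genes were higher and 25.7% lower. The other 12 did not pass. The authors' deposited table calls 2 of the 15 higher and 0 lower. Only ANO3 and ANO8 were called by both. The 4 LRRC8 genes, whose proteins form the channel that lets swollen cells lose chloride and organic solutes, all had overlapping groups. LRRC8A, the subunit this channel cannot work without, was at 573, 555 and 511 and then 552, 531 and 536 (-0.02 ± 0.10, 95% interval -0.22 to 0.19). LRRC8B, LRRC8C and LRRC8D had log2 fold changes of -0.10, 0.03 and 0.05, with intervals between -0.40 and 0.27. ANO3 and ANO8, of the anoctamin family of chloride channels and lipid scramblases, were higher. ANO3 rose from 32, 55 and 34 to 81, 163 and 85 (1.39 ± 0.31, adjusted p = 0.00341). ANO8 rose from 173, 146 and 156 to 332, 308 and 297 (0.98 ± 0.12, adjusted p = 6.46e-05), and both had groups that did not overlap.

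CLCN7, a chloride and proton exchanger of lysosomes, was higher by 0.27 ± 0.11 (adjusted p = 0.0466), a call that ended without untreated pool 1, untreated pool 2, hypoxia pool 1 or hypoxia pool 3, at 0.21 to 0.29. The endosomal exchangers CLCN3, CLCN4, CLCN5 and CLCN6 did not pass, at -0.32 to -0.12, nor did ANO5 (0.09), ANO10 (-0.21) and CLIC4 (0.12). With library totals CLIC4 was higher too (0.34). ANO10 was lower without hypoxia pool 2 (-0.42, adjusted p = 0.0377). CLIC5, whose protein is known in mammals to join the membrane to the actin cytoskeleton, stood at 1327, 1448 and 1718 and then at 557, 1500 and 1355. Hypoxia pool 1 alone was low, and without it the log2 fold change was -0.06 in place of -0.51. The single aquaporin row, AQP4, a water channel, was at 90, 14 and 31 and then 34, 35 and 57 (0.25 ± 0.59). Its untreated pools differed more among themselves than the groups did.

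The main water channel of lens fibers, MIP, lies outside the prefixes and was lower. It stood at 206947, 200034 and 258100 and then at 139051, 143868 and 181230, a log2 fold change of -0.52 ± 0.14 (adjusted p = 0.00775). The fiber gap junction gene GJA3 (-0.59 ± 0.14, adjusted p = 0.00384) was lower too, with no overlap between groups. Both genes are also among the fiber markers counted above. GJA1 (-0.36 ± 0.20, adjusted p = 0.171) did not pass. Library totals ended the calls of MIP (-0.30) and GJA3 (-0.37).

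Among 25 measured of 52 listed channels outside the prefixes, the calls were 3 higher and 10 lower, and 12 did not pass. Of all genes, 29.4% were higher and 25.7% lower. The median log2 fold change of the listed channels was -0.27, beside -0.011 for all genes. The largest falls were those of BEST3, a bestrophin of the chloride channel type (45, 21 and 19, then 11, 4 and 5; -1.94 ± 0.54), the sodium leak channel gene NALCN (49, 50 and 69, then 17, 24 and 10; -1.72 ± 0.37) and CNGB1, a cyclic nucleotide-gated subunit (45, 53 and 56, then 27, 12 and 13; -1.60 ± 0.36). With library totals 5 of the list were higher and 6 lower. Of 20 measured of 40 listed regulators and transporters of cell volume and monovalent ions, there were 6 higher and 2 lower calls, with 12 not passing (median 0.05). SGK1, a kinase that keeps ion channels at the membrane, rose from 19, 13 and 12 to 54, 67 and 62 (2.01 ± 0.32, adjusted p = 0.000301). With library totals this list had 11 higher and 0 lower. Under that scaling the higher calls of all genes rose too and the lower ones fell, as given at the end.

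The authors' deposited table gives adjusted p-values of its own, and by these 16 of the 66 tested genes were higher and 13 lower, where 50.5% of all rows with such a p were called. By both sources 28 genes were called, all in the same direction. By limma only, 5 were called: CACNB4, CLCN7, SCN4B, TRPC1 and TRPM6. By the authors' deposited table only, CACNG5 was called (adjusted p = 0.0351). For KCNF1 the authors' deposited table gives a shrunken log2 fold change of 5.63, for KCNMA1 -2.53 and for ORAI1 1.86.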

How the data were processed

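The authors deposited a score for each gene and library: a read count over the library's size factor, rounded to a whole number, as worked out from the values. Their own log2 fold change (shrunken) and adjusted p-value stand beside it, per the file headers. The authors' build was galGal6, per the submitters' processing notes, which list among tools edgeR, HISAT2, STAR, StringTie, Bowtie2, DESeq2 and cutadapt. Their versions and roles, the annotation and the strand setting of the counting were not stated, so reads of overlapping, antisense or near-identical genes can have been shared. Size factors recovered from steps in the values (untreated pools 0.849, 0.937, 0.744; hypoxia pools 1.16, 1.27, 1.09) turned totals into reads.

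Of 9107 rows, 1 with a value that was not whole was left out. Since the deposited values were scaled and rounded, the count model planned for raw counts was not run. limma 3.58.1 (R 4.3.3) was fitted to log2(value + 1) on rows with a mean of at least 1, with group as the only term and with trend and robust moderation; the fit was tested on simulated data. The p-values set the difference between groups against the spread between pools, with that spread moderated across genes. Alternatives changed the pseudocount, filter, scaling, weights, moderation, block or pools.

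Named genes were members called at least 2-fold, the 2 with the smallest p in each role, all pump, aquaporin, IP3 receptor, ORAI, PIEZO and LRRC8 genes, listed other genes called at least 2-fold, and GJA3, MIP, STIM1 and STIM2. Some genes that this rule or the prefixes cover are counted but not reported here. All others were named to account for the members, or after their values were seen (SARAF, HCN3 and the cell type markers). Members and lists were chosen with earlier results of these data known. RefSeq's GRCg7b gene table held 64 of the 67 symbols. Its build differs from that of the files, so no coordinates are given, and no sequences were used here.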

Additional observations from a re-analysis of the deposited data

How the results depend on the processing

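Direction held wherever a call was made, in 44 genes (those called or named by the rule) under up to 16 alternatives (the filter at a mean of 50 leaves out those under it): 0 changed sign with a call. Pseudocounts of 0.5 and 10, no filter, a filter at a mean of 50, recomputed median-ratio factors, voom weights and plain moderation kept the higher calls of members at 15 to 17 and the lower ones at 11 to 16. Scaling by library totals moved the lower calls from 16 to 5, the median of the members from -0.004 to 0.212 and the lower calls of all genes from 2336 to 976 (higher: 2681 to 3647), with the median of all genes at 0.205. Totals without crystallins gave a member median of 0.085 (all genes 0.077). Why the scalings differ was not tested. Leaving out 1 pool at a time gave 13 to 17 higher members, 10 to 15 lower members and medians of -0.056 to -0.009; over all genes it gave 2345 to 2565 higher and 1716 to 2249 lower. Same-numbered pools deviated together with correlations of 0.117, 0.108 and 0.013, beside -0.16 to 0.059 for differently numbered pools. The largest, 0.117 and 0.108, were thus between same-numbered pools. As all were small, the numbers are not taken to pair the pools. With the replicate block 18 members were higher and 18 lower. Depth limits the 11 tested genes with a mean under 50, such as KCNV2 and TRPM6.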
